A study of Mus musculus with 21 samples.

Results

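B lymphocytes of the mouse spleen were compared with T lymphocytes of the same organ. The comparison used 9 of the 21 arrays in the study, chosen by their sample titles: 3 arrays of B cells, 3 of CD4 T cells and 3 of CD8 T cells. All 9 samples came from wild-type C57BL/6 mice with no treatment named in the labels, and each was RNA pooled from 5 to 8 mice. The cells had been purified by cell sorting, and no source used here names the antibodies of that sort. The description field, which names the spleen, calls these samples dendritic cells (DCs), against their titles, so identity was checked on lineage genes below. In the study, a search for the molecule bound by the antibody 33D1, the lymphocytes served to set aside genes that DCs share with them. The other 12 arrays held splenic DCs recognised by the antibodies 33D1 or DEC205, from wild-type mice (pools of 40 to 80) and from mice injected with Flt3L melanoma (pools of 20, taken on days 10 to 12). They entered no difference between B and T cells as a group. They did enter the estimate of spread, the choice of each gene's probe set, the constant added before log2 and the table's median. Wild-type DC values are given for some of the genes shared with them, so a gene shown without these values may be shared too. The labels do not say whether the 3 pools of each group were drawn independently, so p-values measure the spread between pools, which may be partly technical.

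B cells and T cells are the lymphocytes of adaptive immunity. A B cell recognises antigen with surface immunoglobulin, which signals through the CD79a and CD79b chains, and it presents peptides of that antigen on MHC class II molecules before it matures into an antibody-secreting cell. A T cell recognises peptide on an MHC molecule with its T cell receptor, which signals through the CD3 and zeta chains. CD4 T cells read MHC class II and help other cells, and CD8 T cells read MHC class I and can kill.

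The deposited values are Affymetrix MAS5 signals on a linear scale, with every array scaled by the authors to a 2% trimmed mean of 500. Array medians were 163.3, 141.6 and 156.1 in B cells, 204.4, 140.5 and 182.3 in CD4 T cells and 192.3, 202.9 and 131.7 in CD8 T cells. The mean of these medians was 154 ± 11.1 (SD, n = 3) in B cells and 176 ± 31.8 (SD, n = 6) in T cells, a difference of -22.0 signal units that was within the spread of the T cell arrays (exact permutation test, two-sided, p = 0.274; the smallest p that the 84 splits allow is 0.0119). The median log2 difference over all tested probe sets was -0.07. The scaling of the arrays bears on differences of that size, and some calls with larger differences also depended on it, as given below. Across 18193 genes, arrays of 1 group correlated in log2 signal with r between 0.955 and 0.976, CD4 with CD8 T cell arrays between 0.943 and 0.969, and B cell with T cell arrays between 0.873 and 0.901. These values run across genes, which are no independent replicates, and only describe the arrays.

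The dimmest array of each group (array 2 of the B cells and of the CD4 T cells, and array 3 of the CD8 T cells) stood apart in another respect. Of 19 genes of the immediate early and heat shock response, which cells switch on within minutes of stress or handling, 15 were highest on that array among the B cell arrays, 16 among the CD4 T cell arrays and 17 among the CD8 T cell arrays. Their summed signal was 162133 on array 2 of the B cells against 103093 and 77670.5 on the other two. On the T cell side it was 176794 on array 2 of the CD4 T cells against 71770.3 and 91100.3. Array 3 of the CD8 T cells had 145661 against 64298 and 63955. These 3 arrays are spread over all 3 groups, and counts are given below with and without them.

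**Figure D1:**
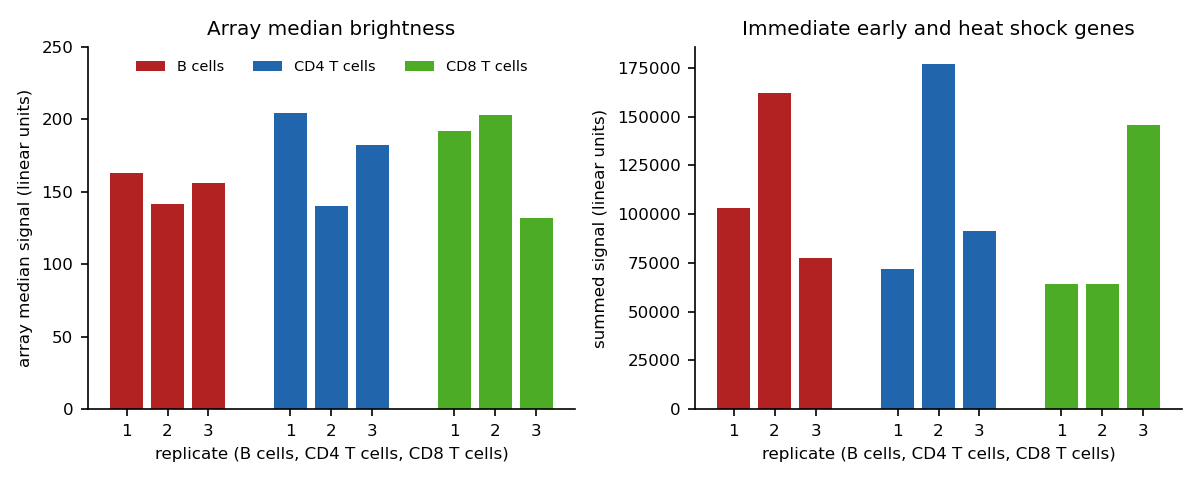
Median signal of each lymphocyte array (left) and the summed signal of 19 immediate early and heat shock genes (right), both in linear signal units, with 1 bar for each array and the B cells on the left of each panel. The array with the lowest median in each group (141.6 for B cells, 140.5 for CD4 and 131.7 for CD8 T cells) has the highest summed signal of its group.

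The lineage markers separated the groups as the titles name them. Cd79a, a signalling chain of the B cell receptor, had signals of 29397, 27544 and 30634 on the B cell arrays, against 179, 101 and 189 on the CD4 T cell arrays and 311, 259.5 and 80.4 on the CD8 T cell arrays. Ly86, which encodes MD-1, the partner of the Toll-like receptor homologue CD180, had 14268, 15356 and 18481 on the B cell arrays, against 163, 21.5 and 89.6 on the CD4 T cell arrays and 212, 51.1 and 39.2 on the CD8 T cell arrays. The B cell arrays were far above every T cell array for both genes, with log2 differences (B cells minus the mean of the T cell groups, on log2(signal + 48.6), ± SE) of 7.05 ± 0.33 and 6.95 ± 0.28. Cd3d, a chain of the CD3 complex, had 18.6, 24.7 and 35.3 on the B cell arrays, against 24766, 22775 and 21415 on the CD4 T cell arrays and 24322, 25981 and 26361 on the CD8 T cell arrays. Cd3g, another CD3 chain, had 47.8, 49.1 and 22.2 on the B cell arrays, against 16982, 15999 and 14452 on the CD4 T cell arrays and 14655, 15641 and 17940.4 on the CD8 T cell arrays. All 6 T cell arrays exceeded every B cell array for these chains, with log2 differences of -8.35 ± 0.13 and -7.51 ± 0.25. Ly86 was not restricted to B cells, since it had 12134 ± 1095 in wild-type 33D1 DCs and 10719.6 ± 1730.1 in wild-type DEC205 DCs, whereas Cd79a had 84.7 ± 67.5 in wild-type 33D1 DCs and 84.5 ± 37.98 in wild-type DEC205 DCs.

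The remaining markers followed the titles too. Ms4a1, which encodes CD20, had 29485 ± 2351 in B cells, against 228 ± 123 in CD4 T cells and 260.4 ± 102 in CD8 T cells (mean ± SD, n = 3 arrays), and Cd4 had 25.2 ± 5.55 in B cells, against 6384 ± 365 in CD4 T cells and 34.6 ± 5.96 in CD8 T cells. Cd8b1, the beta chain of the CD8 co-receptor, had 24.8 ± 21.97 in B cells, against 496 ± 83.9 in CD4 T cells and 24853 ± 742 in CD8 T cells. Cd4 and Cd8 are the antigens in the group titles, so their levels check the samples and are no finding. Cd79b, the partner of Cd79a, was uneven among the T cells. It had 32292, 27763 and 32642 on the B cell arrays, against 165, 44.8 and 195 on the CD4 T cell arrays and 863, 886 and 1004 on the CD8 T cell arrays, so that the CD8 T cell arrays all lay above the CD4 T cell arrays, and B cells exceeded CD4 T cells by 7.51 ± 0.27 and CD8 T cells by 5.00 ± 0.27. The median signal of 46 B cell and class II genes called higher (Ighm left out) was 9603, 10209 and 10724 on the B cell arrays, against 335, 171 and 245 on the CD4 and 279, 256 and 179 on the CD8 T cell arrays. These genes were picked by their call on these arrays, so their medians are no check of identity and only compare arrays within a group. The dimmest CD4 and CD8 arrays were thus also the lowest for B cell genes. In pools like these, fewer cells of a type and less RNA per cell cannot be told apart.

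**Figure D2:**
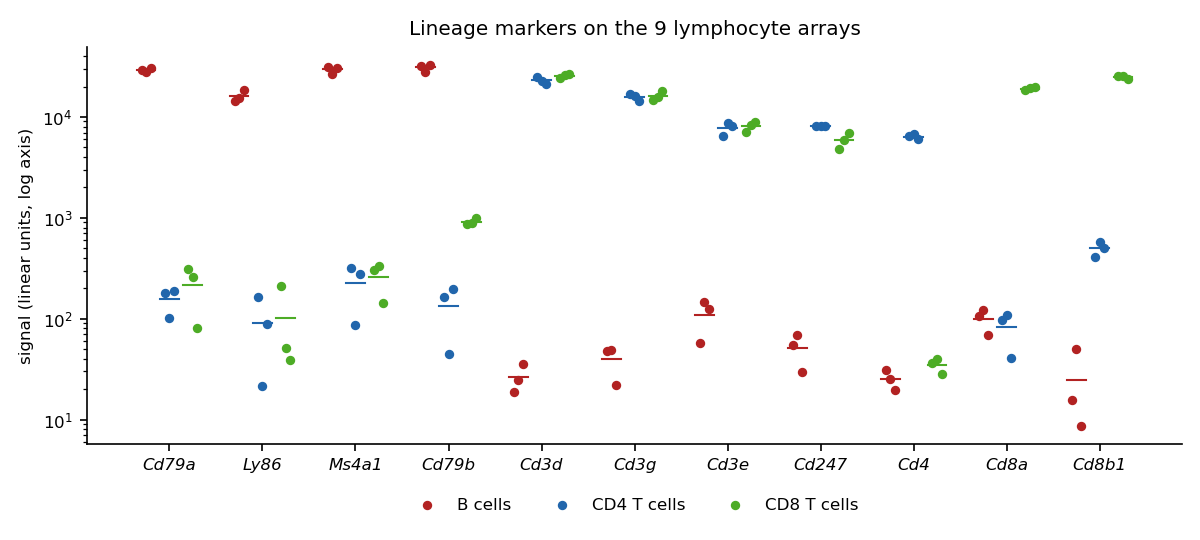
Signal of 11 lineage genes (linear units on a log axis) on the 3 B cell, 3 CD4 T cell and 3 CD8 T cell arrays, with 1 point for each array and a bar at the group mean. The B cell points of Cd79a, Ly86, Ms4a1 and Cd79b lie above every T cell point, those of Cd3d, Cd3g, Cd3e and Cd247 lie below, and Cd79b in CD8 T cells lies between B cells and CD4 T cells.

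The promoters of the 4 markers are shown because these genes define the comparison. All 4 were found in the RefSeq promoter table (GRCm38.p6), which gives 250 bases before to 50 after each start. Sequences run 5′ to 3′, and capitals mark matches on either strand to a searched motif. The E box, which factors such as E2A bind, was searched as CAGGTG. The motif of ETS factors was searched as ACAGGAAG. The motif of the TCF and LEF factors of T cells was searched as ATCAAAG. The motif of factors such as Gata3 was searched as AGATAAG.
Cd79a, chr7:24897247-24897546, plus strand: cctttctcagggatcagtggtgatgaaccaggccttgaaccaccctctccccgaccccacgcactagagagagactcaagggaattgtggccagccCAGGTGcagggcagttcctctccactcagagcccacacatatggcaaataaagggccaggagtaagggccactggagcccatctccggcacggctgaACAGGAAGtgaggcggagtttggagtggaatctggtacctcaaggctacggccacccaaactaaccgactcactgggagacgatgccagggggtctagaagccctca
Ly86, chr13:37345095-37345394, plus strand: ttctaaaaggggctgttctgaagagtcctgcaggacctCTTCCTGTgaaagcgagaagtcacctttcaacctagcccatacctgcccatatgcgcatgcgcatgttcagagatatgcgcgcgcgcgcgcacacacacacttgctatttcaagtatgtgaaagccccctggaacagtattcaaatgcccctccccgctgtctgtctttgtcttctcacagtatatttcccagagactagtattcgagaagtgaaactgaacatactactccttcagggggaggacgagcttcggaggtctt
Cd3d, chr9:44981536-44981835, plus strand: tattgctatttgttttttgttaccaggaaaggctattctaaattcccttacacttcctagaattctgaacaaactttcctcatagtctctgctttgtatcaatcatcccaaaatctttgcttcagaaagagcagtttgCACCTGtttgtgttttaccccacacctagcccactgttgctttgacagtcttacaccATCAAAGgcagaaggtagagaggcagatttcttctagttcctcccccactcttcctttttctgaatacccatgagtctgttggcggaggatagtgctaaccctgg
Cd3g, chr9:44980382-44980681, minus strand: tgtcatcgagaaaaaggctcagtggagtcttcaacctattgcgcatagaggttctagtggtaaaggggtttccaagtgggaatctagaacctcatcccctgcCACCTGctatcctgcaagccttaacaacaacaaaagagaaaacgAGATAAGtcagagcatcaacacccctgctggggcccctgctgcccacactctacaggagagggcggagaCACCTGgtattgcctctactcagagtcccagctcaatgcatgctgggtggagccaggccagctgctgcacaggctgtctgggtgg

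The Cd79a window held an E box at bases 97 to 102 and an ETS match at bases 194 to 201, counted from 1 at its 5′ end. The Ly86 window held an ETS match at bases 39 to 46 and no other. Cd3d had an E box at bases 139 to 144 and a TCF/LEF match at bases 196 to 202, and Cd3g had E boxes at bases 103 to 108 and 216 to 221 with a GATA match at bases 147 to 153. Such matches are common: CAGGTG stood in 20.2% of all 32851 windows of the table, ACAGGAAG in 3.58%, ATCAAAG in 3.73% and AGATAAG in 3.04%. Another 4 motifs were searched on both strands and had no match in these 4 windows, namely ATGCAAAT (the octamer), GAGGAAGT (PU.1), TGTGGTT (RUNX) and the EBF motif. The genes at least 4-fold higher in B cells had 260 windows from 201 genes, and those at least 4-fold lower had 248 windows from 186 genes. The EBF motif occurred in 9 of the 260 windows (3.46%), against 3 of the 248 (1.21%) and 0.904% of the table. GAGGAAGT occurred in 6.15% of the windows of genes higher in B cells, in 5.24% of the windows of genes lower in B cells and in 3.2% of the table. In the same order, the shares were 2.31%, 1.61% and 1.74% for the octamer and 2.69%, 4.03% and 3.73% for TCF/LEF. They were 4.62%, 6.05% and 5.27% for RUNX and 1.92%, 2.42% and 3.04% for GATA. The ETS motif had 5.0%, 6.05% and 3.58%, and the E box 22.7%, 22.6% and 20.2%. Differences between these shares were not tested. A match is a description of letters and shows no binding.

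Each gene was represented by its brightest probe set, and a gene was called when limma's adjusted p over all 34945 probe sets with 1 gene symbol was under 0.05. B cells had 1647 of 18193 genes called higher (9.05%) and 1784 called lower (9.81%) than the mean of the T cell groups. Of these, 729 were at least 2-fold higher (4.01% of all genes) and 757 at least 2-fold lower (4.16%), and 87 were at least 16-fold higher and 61 at least 16-fold lower. After median centring of the arrays 1489 genes were called higher and 985 lower, which moved the higher share of all calls to 60.2%, against 48% on the deposited scaling. Without the dimmest array of each group the counts were 1478 and 1631. The 3 B cell arrays lay above all 6 T cell arrays for 1398 of the higher genes and below them for 1413 of the lower genes, while 8.72% of all genes showed the first arrangement and 9.43% the second. Genes described below as higher or lower were called. The counts of called members in the gene lists below stand against 9.05% of all genes called higher and 9.81% called lower. Folds are computed on log2(signal + 48.6), which understates the change of genes with a low signal on either side.

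The T cell groups were also taken 1 at a time. Against CD4 T cells alone 1428 genes were higher (7.85%) and 1528 lower (8.4%), and against CD8 T cells alone 1483 were higher (8.15%) and 1579 lower (8.68%). These comparisons share the B cell arrays. B cells were higher than both T cell groups in 1127 genes and lower than both in 1107. In 7 genes, chosen after their values were seen, B cells lay between the T cell groups and differed from each. St8sia6, a sialyltransferase, had 793 ± 201 in B cells, against 3112 ± 358 in CD4 T cells and 179 ± 40.8 in CD8 T cells. Zbtb7b, which encodes ThPOK, the factor of the CD4 lineage, had 759 ± 50.8 in B cells, against 1442 ± 81.2 in CD4 T cells and 231 ± 107 in CD8 T cells. Maf, a transcription factor of helper T cells, had 199 ± 40.3 in B cells, against 1747 ± 872 in CD4 T cells and 70.6 ± 18.4 in CD8 T cells, and its call against CD8 T cells was close to the threshold (adjusted p = 0.0486). Nxpe3 was also lower than in CD4 and higher than in CD8 T cells. Rras2, Dpp4 and Shmt2 ran the opposite way, as Dpp4, a surface peptidase, shows with 1848 ± 210.1 in B cells, against 1025 ± 72.4 in CD4 T cells and 2817 ± 271 in CD8 T cells.

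**Figure D3:**
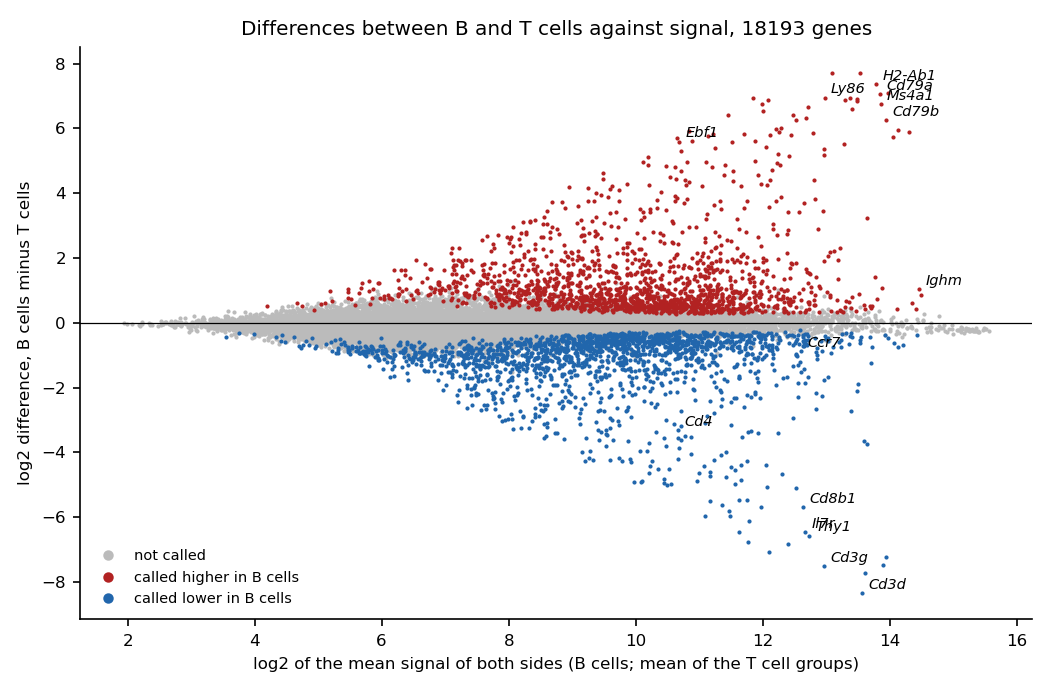
Log2 difference (B cells minus the mean of the T cell groups) of 18193 genes against the log2 of their mean signal, with 1 point for each gene, red for the 1647 genes called higher, blue for the 1784 called lower and grey for the rest. Genes of the B cell receptor and class II lie at the top right, CD3 chains at the bottom right, and Ighm, bright on both sides, near a difference of 1.04.

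Among the 15 genes with the highest differences were the immunoglobulin light chains, which carry the antigen specificity of the B cell receptor. Iglv1, a lambda variable segment, had 18022, 15504 and 18655 on the B cell arrays, against 19.2, 18 and 111 on the CD4 T cell arrays and 27, 39.6 and 19.6 on the CD8 T cell arrays. Iglv1 differed by 7.71 ± 0.27. The kappa probe sets annotated Igkv8-30 and Igk differed by 7.11 ± 0.31 and 6.94 ± 0.17, and the heavy chain probe set annotated Ighv14-2 by 6.91 ± 0.25. These segments belong to families of near-identical genes, so each probe set may read several of them and the segment named is uncertain. Ly6d, a surface protein of committed B cell progenitors, had 21156 ± 1086 in B cells, against 110.3 ± 55.6 in CD4 T cells and 162 ± 86.6 in CD8 T cells (6.93 ± 0.37). Cd24a, the heat stable antigen, had 19971 ± 3139 in B cells, against 142 ± 35.8 in CD4 T cells and 107 ± 37.5 in CD8 T cells (6.88 ± 0.19), and Fcmr, the receptor of the IgM Fc part, differed by 6.84 ± 0.26. Mef2c, a transcription factor active downstream of the B cell receptor, had 7799, 8092 and 8495 on the B cell arrays, against 46.9, 7.10 and 14.3 on the CD4 T cell arrays and 88.1, 11.5 and 20.5 on the CD8 T cell arrays. Mef2c differed by 6.75 ± 0.21. Its T cell values were below the table's median of 156.3 on all 6 arrays. Serpinb1a, a protease inhibitor, and Napsa, an aspartic protease, differed by 6.88 ± 0.22 and 6.66 ± 0.23. Napsa was also bright in DCs, with 17815 ± 1093 in wild-type 33D1 DCs and 11001 ± 1412 in wild-type DEC205 DCs. Cd24a had 1030 ± 295 in wild-type 33D1 DCs and 14068 ± 1337 in wild-type DEC205 DCs. Mef2c had 2734 ± 203 in wild-type 33D1 DCs and 923 ± 218 in wild-type DEC205 DCs.

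The 15 lowest differences were led by the antigen receptor of T cells. Besides Cd3d and Cd3g, the probe sets annotated Trbv1 and Trav9d-3, variable segments of the receptor's beta and alpha chains, differed by -7.74 ± 0.21 and -7.48 ± 0.19, with the same doubt over which segment they read. Ms4a4b, a membrane protein of the CD20 family found in T cells, had 168, 144 and 174 on the B cell arrays, against 35000.4, 29151 and 28781 on the CD4 T cell arrays and 31113, 31809 and 31995 on the CD8 T cell arrays. Ms4a4b differed by -7.22 ± 0.12. The CD20-family genes were thus bright on opposite sides, Ms4a1 in B cells and Ms4a4b in T cells. Dapl1 had 11.3, 9.90 and 21.7 on the B cell arrays, against 5643, 7365 and 6093 on the CD4 T cell arrays and 9207, 10933 and 13444 on the CD8 T cell arrays (log2 difference -7.07 ± 0.21), the CD8 T cell arrays lying above the CD4 T cell arrays. Bcl11b, the transcription factor that fixes T cell identity, had 11.4, 10.9 and 19.8 on the B cell arrays, against 8306, 8498 and 8088 on the CD4 T cell arrays and 5193, 5554 and 6032 on the CD8 T cell arrays. Bcl11b differed by -6.78 ± 0.24. Lat, the adaptor that gathers T cell receptor signals, differed by -6.84 ± 0.17, Thy1, the surface antigen that marks mouse T cells, by -6.57 ± 0.27, and Slfn1, a Schlafen family member, by -5.96 ± 0.26. Als2cl also lay in this set, at -5.81 ± 0.18.

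All 9 measured genes of the B cell receptor and its coreceptors were called higher in B cells, with a median difference of 5.79, against -0.07 over all genes. Cr2 (CD21), the complement receptor that lowers the threshold of B cell activation, had 9712, 11365 and 12028 on the B cell arrays, against 215, 95.4 and 152 on the CD4 T cell arrays and 278, 177 and 58.8 on the CD8 T cell arrays. Cr2 differed by 5.80 ± 0.25. Fcgr2b, the inhibitory Fc receptor, had 6562, 7266 and 6015 on the B cell arrays, against 20.2, 48.4 and 82.9 on the CD4 T cell arrays and 75.2, 118 and 94.5 on the CD8 T cell arrays. Fcgr2b differed by 5.83 ± 0.20. On these probe sets every B cell array was far above every T cell array for both genes. Other Fcgr2b probe sets differed by 5.35 ± 0.18, 4.91 ± 0.35 and 1.72 ± 0.25, and a dim one was not called (-0.03 ± 0.24). The probe set at 1.72 had 4777.5, 5446.9 and 4330.2 on the B cell arrays. Its T cell signals were 2392.5, 1050.4 and 882.1 on the CD4 arrays and 1438.7, 2043.3 and 1308.1 on the CD8 arrays. Cd22 and Siglecg, sialic acid-binding inhibitors of the receptor, differed by 5.53 ± 0.24 and 5.79 ± 0.27, and B cells had 19478 ± 888 and 8759.7 ± 1237 signal units of them. Cd81, the tetraspanin of the coreceptor, was less one-sided, with 6104 ± 1145 in B cells, against 931 ± 107 in CD4 T cells and 235 ± 61.8 in CD8 T cells. CD4 T cells lay above CD8 T cells there, and the reverse held for Cd72, another inhibitory coreceptor, with 9368 ± 186 in B cells, against 803 ± 169 in CD4 T cells and 1955 ± 387 in CD8 T cells.

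Ighm, the constant region of the IgM heavy chain, showed the smallest difference of the group. Its brightest probe set had 31172, 27526 and 32590.4 on the B cell arrays, against 13836, 16416 and 15630 on the CD4 T cell arrays and 15984, 11862 and 15281 on the CD8 T cell arrays, a difference of 1.04 ± 0.13. A second bright Ighm probe set had 40657, 35140.5 and 40577 on the B cell arrays, against 9054, 9580 and 8859 on the CD4 and 8927, 8942 and 10382 on the CD8 T cell arrays (difference 2.06 ± 0.10). Both were bright in T cells, where Cd79a and Ms4a1 stayed near the table's median of 156.3, and wild-type DCs gave 7378 ± 1199 and 7398 ± 751 on the brightest one. What these probe sets read in T cells was not tested. Of the 11 Ighm probe sets, 4 were called, all higher in B cells.

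Downstream of the receptor, 16 of 17 measured members were called higher, 0 lower and 1 not at all (median 2.58). Syk, the kinase that binds phosphorylated CD79, had 9884, 7816 and 7345 on the B cell arrays, against 123, 163 and 192 on the CD4 T cell arrays and 179, 152 and 85.2 on the CD8 T cell arrays. Syk differed by 5.42 ± 0.15. Rasgrp3, an activator of Ras in B cells, had 4721 ± 625 in B cells, against 33.8 ± 14.1 in CD4 T cells and 49.2 ± 64.5 in CD8 T cells (5.83 ± 0.24). Syk and Rasgrp3 were thus near or below the table's median of 156.3 in T cells. Bank1, a B cell scaffold protein (5.37 ± 0.24), Swap70, a regulator of the cytoskeleton (5.21 ± 0.11), Plcg2, the phospholipase of the pathway (4.29 ± 0.13), and Pik3ap1, an adaptor for PI3 kinase (2.58 ± 0.13), were higher as well. Outside the naming rule, the adaptor Blnk (6.25 ± 0.40) and the kinase Btk (5.40 ± 0.26) showed differences of the same order. Swap70 was unequal in the T cells, at 429 in CD4 and 89.7 in CD8 T cells, against 9453 in B cells. Vav3, a guanine nucleotide exchange factor, was the member not called, with 228 in B cells, against 319 in CD4 T cells and 183 in CD8 T cells.

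Of the transcription factors that set up and maintain B cells, 16 of 19 measured members were called higher, 0 lower and 3 not at all (median 2.60). Ebf1, the early B cell factor, had 3562, 3284 and 2980 on the B cell arrays, against 10, 1.90 and 5.30 on the CD4 T cell arrays and 53.1, 37.1 and 27.1 on the CD8 T cell arrays. Ebf1 differed by 5.59 ± 0.18. Spib, an Ets factor, had 13986 ± 2052 in B cells, against 199.6 ± 101 in CD4 T cells and 218 ± 108 in CD8 T cells (5.84 ± 0.25), and Pou2af1, the octamer coactivator OCA-B, had 13741 ± 783 in B cells, against 544 ± 138 in CD4 T cells and 668 ± 87.4 in CD8 T cells (4.42 ± 0.18). Bcl11a, the relative of Bcl11b, had 3754 ± 546 in B cells, against 36.6 ± 25.7 in CD4 T cells and 29.2 ± 36.7 in CD8 T cells (5.61 ± 0.23). The paralogues were therefore opposed, since Bcl11b differed by -6.78 ± 0.24. Tcf4 (E2-2) differed by 4.33 ± 0.13 and Irf4 by 3.42 ± 0.33. Pax5, the factor that commits cells to the B lineage (outside the naming rule), had a modest signal of 856 ± 302 in B cells, against 224 ± 25.6 in CD4 T cells and 297 ± 190.3 in CD8 T cells and a difference of 1.58 ± 0.39. Id3, Zbtb20 and Cux1 were not called.

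All 24 measured surface and other B cell markers were called higher (median 4.53). Fcer2a, the low affinity IgE receptor CD23 of follicular B cells, had 13363, 13216 and 12516 on the B cell arrays, against 141, 100.4 and 67.4 on the CD4 T cell arrays and 222, 200.5 and 43 on the CD8 T cell arrays. Fcer2a differed by 6.31 ± 0.26. Fcrl1 and Fcrla, Fc receptor-like proteins, differed by 5.89 ± 0.22 and 5.61 ± 0.22. Of the Fc and complement receptors as a group, 9 of 17 measured members were called higher, 0 lower and 8 not at all (median 0.56). The members not called, such as Fcgr1, Fcgr4 and Fcer1g, belong to myeloid Fc receptors, and had signals of 162 to 348 in B cells. The receptors of survival and help were high. Tnfrsf13c, the BAFF receptor, had 9629 ± 1337 in B cells, against 260.3 ± 113 in CD4 T cells and 326 ± 118 in CD8 T cells (4.88 ± 0.22), and Cd40 had 3068 ± 306 in B cells, against 62.9 ± 32.2 in CD4 T cells and 75.1 ± 60.5 in CD8 T cells (4.80 ± 0.21). Kmo, kynurenine monooxygenase of tryptophan breakdown, had 3390.4 ± 134 in B cells, against 150 ± 26.6 in CD4 T cells and 120.5 ± 21.7 in CD8 T cells (4.24 ± 0.10).

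Class II presentation was the other group that lay far above T cells: 16 of 19 measured members were called higher, 1 lower and 2 not at all (median 3.69). H2-Ab1, the beta chain of I-A, had 26081, 26719.7 and 31347 on the B cell arrays, against 153, 51.2 and 199 on the CD4 T cell arrays and 241, 29.1 and 172 on the CD8 T cell arrays. H2-Ab1 differed by 7.36 ± 0.30. H2-Aa, its alpha chain, had 35203 ± 1940.1 in B cells, against 480.2 ± 311 in CD4 T cells and 689.5 ± 246 in CD8 T cells (5.94 ± 0.28), and Cd74, the invariant chain, had 39642 ± 2399 in B cells, against 669.7 ± 296 in CD4 T cells and 644 ± 301 in CD8 T cells (5.90 ± 0.24). The highest signal of any probe set was 43236 to 48386 on the B cell arrays, so these genes were among the brightest there. H2-Eb1 differed by 5.75 ± 0.23, while H2-Ea, which C57BL/6 mice do not express, had 70.4 ± 19.1 in B cells, against 71.7 ± 23.7 in CD4 T cells and 81.2 ± 38.95 in CD8 T cells and was not called. H2-Ea thus lay below the table's median of 156.3 on all 9 arrays.

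The peptide-loading proteins were high in B cells too. H2-DMb2, a chain of H2-M, had 22729, 25941 and 22018 on the B cell arrays, against 135, 26.3 and 149.7 on the CD4 T cell arrays and 106, 22.7 and 19.4 on the CD8 T cell arrays (log2 difference 7.71 ± 0.26), and H2-DMa differed by 3.43 ± 0.12. H2-Oa and H2-Ob, the chains of the H2-O molecule that restrains loading, differed by 3.69 ± 0.13 and 3.44 ± 0.09. H2-Ob was bright in DCs too, with 14495 in B cells, against 10654 ± 1281 in wild-type 33D1 DCs and 7698 ± 548 in wild-type DEC205 DCs. H2-DMb2 had 16630 ± 3347 in wild-type 33D1 DCs and 3596 ± 541 in wild-type DEC205 DCs. Ciita, the master regulator of class II genes, had 2613, 2654 and 1599 on the B cell arrays, against 65.5, 78.3 and 101 on the CD4 T cell arrays and 88.3, 99.9 and 20.3 on the CD8 T cell arrays. Ciita differed by 4.24 ± 0.27. Rfx5, which binds class II promoters, differed less (1.44 ± 0.12). Marchf1, the ubiquitin ligase that removes class II from the surface, had 3641 ± 418 in B cells, against 4.57 ± 1.27 in CD4 T cells and 23.1 ± 22.9 in CD8 T cells (5.92 ± 0.14), another probe set was called the same way and a dim one was called lower (-0.80 ± 0.21).

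The proteases that prepare class II peptides were not all on the B cell side. Ctsh, cathepsin H, had 9902 ± 775 in B cells, against 84.7 ± 7.58 in CD4 T cells and 135 ± 57.7 in CD8 T cells (6.01 ± 0.14), and Ifi30, the thiol reductase GILT, differed by 3.82 ± 0.10. Lgmn, the asparagine endopeptidase, differed by 3.48 ± 0.14, Ctsz by 2.88 ± 0.14 and Ctss, cathepsin S, by only 1.07 ± 0.12, with 20396 ± 605 in B cells, against 9882 ± 1611 in CD4 T cells and 9608 ± 758 in CD8 T cells. Ctsl, cathepsin L, ran the other way with 210.1, 277 and 272 on the B cell arrays, against 368, 685 and 422 on the CD4 T cell arrays and 697, 634 and 893 on the CD8 T cell arrays, and its call (-1.09 ± 0.23, adjusted p = 0.00106) was lost after median centring (adjusted p = 0.056). Ctsb, cathepsin B, was not called, with 3367 ± 1221 in B cells, against 4507 ± 251 in CD4 T cells and 2979.8 ± 593 in CD8 T cells. Without B cell array 3 it was called lower (-0.44, adjusted p = 0.0097). H2-Aa was bright in wild-type DCs as well, with 31280.1 ± 2046 in wild-type 33D1 DCs and 32545 ± 5290.0 in wild-type DEC205 DCs, against 35203 in B cells. H2-Ab1 had 30962 ± 1858 in wild-type 33D1 DCs and 34227 ± 4232 in wild-type DEC205 DCs, against 28049 in B cells.

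**Figure D4:**
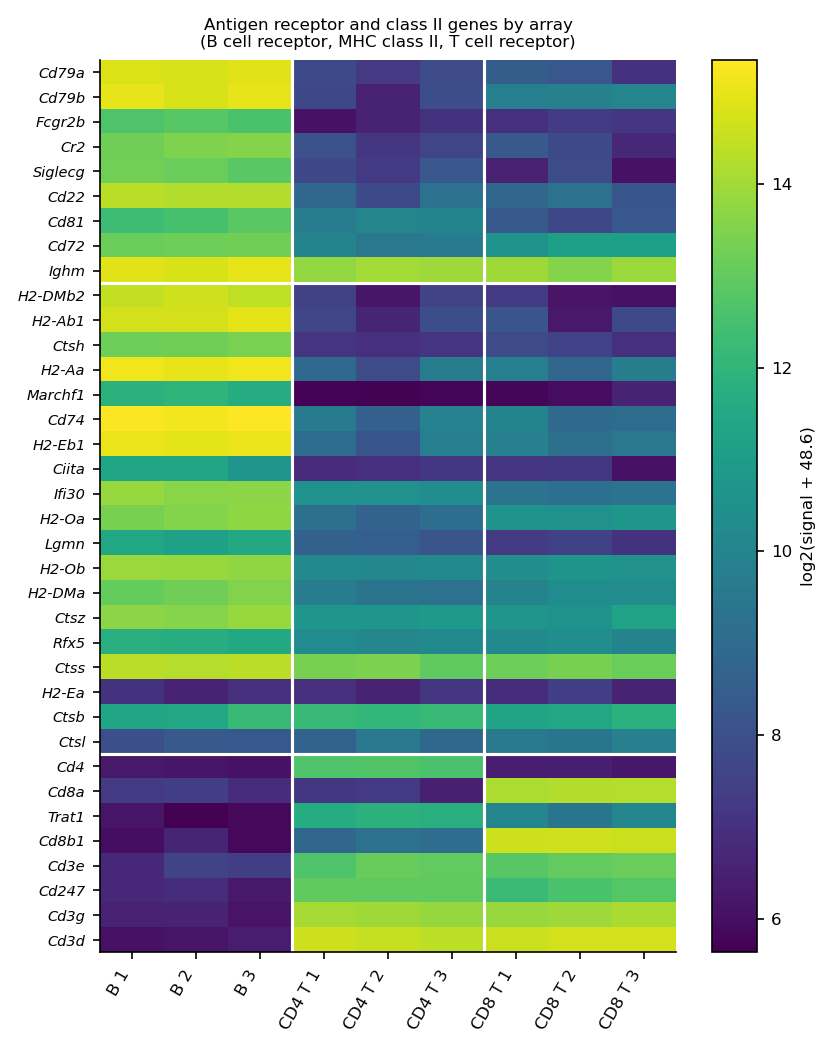
Log2(signal + 48.6) of each measured gene of the B cell receptor (top), MHC class II presentation (middle) and T cell receptor (bottom) on the 9 arrays, with B cells in the left columns. Genes within a block are ordered by difference; H2-Ea is dark on all arrays, Ctsb and Ctsl are not brighter in B cells, and Ighm is bright in T cells as well.

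MHC class I presentation, which all nucleated cells carry out, was split: 3 of 17 measured members were called higher, 5 lower and 9 not at all (median -0.19). Calls covered 47.1% of the list, against 18.9% of all genes. Nlrc5, the transactivator of class I genes, had 1539, 2092 and 1373 on the B cell arrays, against 3448, 4059 and 3751 on the CD4 T cell arrays and 5128, 4403 and 5073 on the CD8 T cell arrays. Its log2 difference of -1.35 ± 0.13 put B cells below both T cell groups. Erap1, which trims class I peptides (-1.11 ± 0.11), Tapbpl, a peptide editor (-0.96 ± 0.15), and Tap2, a subunit of the peptide transporter (-0.59 ± 0.10), were lower in B cells, and Tap2 lost its call after median centring (adjusted p = 0.252). H2-M3, which presents formylated peptides (0.73 ± 0.09), and the chaperone Calr (0.70 ± 0.12) were higher. The classical heavy chains H2-K1 and H2-D1 were not called. H2-K1 had 27269.6 ± 1510.5 in B cells, against 32153 ± 3183 in CD4 T cells and 35057 ± 3737 in CD8 T cells, and B2m, the light chain, had 31342 ± 2000.2 in B cells, against 35597 ± 5977 in CD4 T cells and 37841 ± 3964 in CD8 T cells (both chosen after their values were seen). Both genes were bright but lay below the highest signal of any probe set, which was 43236 to 48386 on the B cell and 47419 to 66074 on the T cell arrays.

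Genes of antibody-secreting and germinal centre cells were mixed: 8 of 14 measured members were called higher, 2 lower and 4 not at all (median 1.27). Mzb1, an endoplasmic reticulum protein of marginal zone and plasma cells, had 13565, 13771 and 19397 on the B cell arrays, against 468, 310.1 and 359.8 on the CD4 T cell arrays and 419, 549.9 and 238 on the CD8 T cell arrays. Mzb1 differed by 5.17 ± 0.20. Xbp1, the transcription factor of secretory cells, had 7347 ± 681 in B cells, against 3614 ± 619 in CD4 T cells and 2273 ± 312 in CD8 T cells (1.35 ± 0.12), Bcl6, the factor of germinal centre B cells, differed by 1.84 ± 0.12, and Sdc1 (CD138), a plasma cell antigen, by 1.78 ± 0.30 at a B cell signal of 394 ± 77.7. B cell array 3 stood apart in this group. Jchain, the joining chain of secreted IgM (chosen after its values were seen), had 337, 322 and 8362 on the B cell arrays, against 209.6, 119 and 469 on the CD4 T cell arrays and 190.3, 185 and 127.5 on the CD8 T cell arrays. Jchain differed by 2.11 ± 0.64. On B cell array 3, 11 of the 14 members had their highest signal among the B cell arrays, and without that array the median was 0.75, with 7 members higher and 2 lower. Fas, the death receptor of germinal centre B cells, was lower in B cells, with 238 in B cells, against 632 in CD4 T cells and 682 in CD8 T cells (-1.31 ± 0.27).

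Among markers of marginal zone and B-1 cells, 7 of 16 measured members were called higher, 3 lower and 6 not at all (median 0.38). Notch2, the receptor that directs marginal zone development, had 7739 ± 1065 in B cells, against 1981 ± 180.1 in CD4 T cells and 1864 ± 336 in CD8 T cells (1.98 ± 0.12). Plac8 (onzin) had 19011, 19122 and 24949.5 on the B cell arrays, against 839.8, 265 and 629.6 on the CD4 T cell arrays and 7294, 8205 and 10631 on the CD8 T cell arrays (log2 difference 3.23 ± 0.21), so CD8 T cells came closer to B cells than CD4 T cells did. Cd5 and Spn (CD43) are carried by B-1 cells and by T cells, and both were lower in B cells. Cd5 had 326, 226 and 267 on the B cell arrays, against 8433, 8924 and 9342 on the CD4 T cell arrays and 4162, 3671 and 5026 on the CD8 T cell arrays. Cd5 differed by -4.28 ± 0.13. Spn differed by -2.87 ± 0.14.

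All 8 measured genes of the T cell receptor complex and its coreceptors were called lower in B cells (median -5.69). Cd3e had 57.9, 147 and 125 on the B cell arrays, against 6487, 8622 and 8134 on the CD4 T cell arrays and 7122, 8316 and 8817 on the CD8 T cell arrays. Cd3e differed by -5.69 ± 0.22. Cd247, the zeta chain, had 55.1, 69.7 and 29.6 on the B cell arrays, against 8050.3, 8072 and 8120.4 on the CD4 T cell arrays and 4859, 5939 and 6935 on the CD8 T cell arrays. Cd247 differed by -6.13 ± 0.21. All B cell arrays thus lay below the table's median of 156.3 for both chains, and every T cell array lay far above it. Trat1, a transmembrane adaptor of the receptor, had 11.3 ± 12.00 in B cells, against 3434 ± 277 in CD4 T cells and 892 ± 230.1 in CD8 T cells (-4.92 ± 0.23). The contrast with the mean of the T cell groups understates genes of 1 T cell group, since Cd4 and Cd8 each belong to 1 of them. Cd4 differed by -6.45 ± 0.30 from CD4 T cells and Cd8a by -7.03 ± 0.34 from CD8 T cells. Cd8a had 99.4 ± 27.95 in B cells, against 82.2 ± 36.4 in CD4 T cells and 19078 ± 629.5 in CD8 T cells, and DEC205 DCs, which carry CD8 alpha, had 15823 ± 503.

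Of the genes that relay the T cell receptor signal, 1 of 22 measured members were called higher, 18 lower and 3 not at all (median -3.00). Lcp2 (SLP-76), the adaptor that joins Lat, had 93.4, 146 and 191 on the B cell arrays, against 6266, 6804 and 6472 on the CD4 T cell arrays and 5095, 4842 and 5888 on the CD8 T cell arrays. Lcp2 differed by -4.97 ± 0.12. Prkcq, protein kinase C theta, had 15.9, 30.2 and 21.7 on the B cell arrays, against 4892, 7438 and 5947 on the CD4 T cell arrays and 6914, 5417 and 7281 on the CD8 T cell arrays. Prkcq differed by -6.47 ± 0.18. Skap1, an adaptor of integrin activation, differed by -4.73 ± 0.18, and Cd6, a surface regulator, by -5.98 ± 0.23. The kinase at the receptor itself was opposed between the lineages. Zap70 (outside the naming rule) had 134 ± 8.79 in B cells, against 4397 ± 545 in CD4 T cells and 4503 ± 798 in CD8 T cells (-4.61 ± 0.21), and its relative Syk lay the other way (5.42 ± 0.15). Nfatc1 was the member called higher in B cells (0.41 ± 0.10), with 4064 ± 435 in B cells, against 3179.7 ± 176 in CD4 T cells and 2915 ± 158 in CD8 T cells. After median centring, without B cell array 2 and without the dimmest arrays, 0 members of this list were called higher. Vav1, Grap2 and Nfatc3 were not called.

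T cell transcription factors were lower or not called in B cells: 0 of 19 measured members were called higher, 14 lower and 5 not at all (median -1.62). Lef1, the partner of beta-catenin, had 401, 317 and 292 on the B cell arrays, against 9266, 11759 and 9689 on the CD4 T cell arrays and 7732, 9993 and 10383 on the CD8 T cell arrays. Lef1 differed by -4.68 ± 0.14. Satb1, a chromatin organiser, was expressed on both sides, with 3614 ± 382 in B cells, against 13189 ± 763 in CD4 T cells and 11712 ± 58.1 in CD8 T cells (-1.77 ± 0.11). Gata3 had a low signal even in T cells, with 15 ± 8.54 in B cells, against 583 ± 138 in CD4 T cells and 301 ± 76.9 in CD8 T cells (-2.87 ± 0.20), and Tox differed by -3.26 ± 0.21 and Id2, an inhibitor of E proteins, by -3.52 ± 0.20. Foxp3, the factor of regulatory T cells (outside the naming rule), had 177, 113 and 74.2 on the B cell arrays, against 617, 336 and 725 on the CD4 T cell arrays and 123, 165 and 96.7 on the CD8 T cell arrays (log2 difference -0.95 ± 0.26), which placed the CD4 T cell arrays above the rest. Ets1, Klf2, Runx1, Runx3 and Zbtb7b were not called against the mean of the T cells.

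Among T cell surface proteins and costimulators, 2 of 22 measured members were called higher, 18 lower and 2 not at all (median -3.31). Il7r, the receptor of the survival cytokine IL-7, had 79.3, 87.4 and 133 on the B cell arrays, against 13314, 12856 and 12359.9 on the CD4 T cell arrays and 12931, 13528 and 12269.6 on the CD8 T cell arrays. Il7r differed by -6.46 ± 0.14. Cd27, a costimulator of the TNF receptor family, had 46.8 ± 7.41 in B cells, against 2841 ± 417 in CD4 T cells and 3051 ± 246 in CD8 T cells (-4.97 ± 0.24), and Ms4a6b differed by -3.75 ± 0.12 with a B cell signal of 1727 ± 169.5. Slamf1 and Cd44 were the members higher in B cells, at 1.35 ± 0.25 and 0.57 ± 0.18 (chosen after their values were seen). Only 1 member was called higher after median centring, without B cell array 2 or 3, or without the dimmest arrays. Ctla4, an inhibitory receptor (outside the naming rule), had 8.30, 62.2 and 251 on the B cell arrays, against 1583, 1447 and 3536 on the CD4 T cell arrays and 228, 214 and 443 on the CD8 T cell arrays. Ctla4 differed by -2.74 ± 0.42.

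Cytokine receptors divided between the lineages, as 6 of 23 measured members were called higher, 13 lower and 4 not at all (median -0.49). Il6st (gp130) and Il6ra, the chains of the IL-6 receptor, were lower in B cells, with differences of -3.57 ± 0.13 and -2.23 ± 0.16, and Il18r1 differed by -3.63 ± 0.27. Il2rb, the beta chain shared by the IL-2 and IL-15 receptors, had 20, 12.5 and 8.10 on the B cell arrays, against 1886, 766 and 1595 on the CD4 T cell arrays and 2182, 2589.6 and 2952 on the CD8 T cell arrays. Il2rb differed by -4.93 ± 0.27. Il10ra, a chain of the IL-10 receptor, was higher in B cells, with 1464, 1857 and 1211 on the B cell arrays, against 312, 247 and 314 on the CD4 T cell arrays and 277, 163 and 269 on the CD8 T cell arrays. Il10ra differed by 2.32 ± 0.14. The IL-6 and IL-18 chains were thus on the T cell side and the IL-10 receptor chain on the B cell side.

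Of the chemokine receptors and homing molecules, 2 of 18 measured members were called higher, 12 lower and 4 not at all (median -0.96). Cxcr5, which guides cells into follicles, had 8189.7, 9055 and 9186 on the B cell arrays, against 819, 384 and 554 on the CD4 T cell arrays and 599.8, 719 and 618 on the CD8 T cell arrays. Cxcr5 differed by 3.77 ± 0.22. Ccr6, the receptor of CCL20, had 5517, 6784 and 5952 on the B cell arrays, against 896, 239 and 535 on the CD4 T cell arrays and 138, 263 and 91.9 on the CD8 T cell arrays. Ccr6 differed by 4.21 ± 0.28. They were the members called higher in B cells. Ccr9, the receptor of gut homing, had 49.9, 55.4 and 19.1 on the B cell arrays, against 372, 403 and 439.9 on the CD4 T cell arrays and 5956, 4336 and 7718 on the CD8 T cell arrays (log2 difference -4.21 ± 0.23), and Itgae (CD103), which binds epithelial E-cadherin, had 109.8 ± 15.2 in B cells, against 294 ± 151 in CD4 T cells and 5162 ± 764 in CD8 T cells (-3.02 ± 0.23), both highest in CD8 T cells. Cxcr3, a receptor of interferon-induced chemokines, differed by -3.14 ± 0.26 and Selplg (PSGL-1), a selectin ligand, by -2.95 ± 0.09. S1pr1, which lets lymphocytes leave the spleen and nodes, had 3002 ± 254 in B cells, against 5514 ± 443 in CD4 T cells and 4812 ± 676 in CD8 T cells (-0.77 ± 0.13).

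In the TNF superfamily, 4 of 22 measured members were called higher, 11 lower and 7 not at all (median -0.80). Tnfrsf13b (TACI), a receptor of BAFF and APRIL, had 8302, 7634 and 8404 on the B cell arrays, against 1088, 1432 and 1109 on the CD4 T cell arrays and 937, 752 and 1030.3 on the CD8 T cell arrays. Tnfrsf13b differed by 2.91 ± 0.14. Tnfrsf1a, a receptor of TNF, had 140.3, 68.7 and 210.1 on the B cell arrays, against 1756, 1839 and 1701 on the CD4 T cell arrays and 1474, 1321 and 1331 on the CD8 T cell arrays (log2 difference -3.17 ± 0.17), and Tnfsf8, the CD30 ligand, had 91.2 ± 20.5 in B cells, against 828 ± 116 in CD4 T cells and 818 ± 90.1 in CD8 T cells (-2.64 ± 0.21). Ltb, lymphotoxin beta (chosen after its values were seen), was bright in all groups and not called, with 23959 ± 1305 in B cells, against 23307 ± 2379 in CD4 T cells and 22621 ± 2037 in CD8 T cells.

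Cytotoxic and NK type genes were lower or not called in B cells: 0 of 20 measured members were called higher, 18 lower and 2 not at all (median -1.93). Nkg7, a granule membrane protein, had 24.6, 86.3 and 122 on the B cell arrays, against 1386, 404 and 1559 on the CD4 T cell arrays and 9952, 11443 and 13692 on the CD8 T cell arrays. Nkg7 differed by -4.85 ± 0.40. Ccl5, the chemokine RANTES stored by effector T cells, had 16.7, 31 and 25.6 on the B cell arrays, against 2138, 559 and 2554 on the CD4 T cell arrays and 5924, 9665 and 10415 on the CD8 T cell arrays. Ccl5 differed by -5.62 ± 0.36. CD8 T cells were the brightest group for both genes, and CD4 array 2 was the lowest of the CD4 T cell arrays. Klrd1 (CD94) had 152 ± 25.9 in B cells, against 1564 ± 273 in CD4 T cells and 11050.1 ± 507 in CD8 T cells (-4.40 ± 0.18), Ctsw, a cathepsin of cytotoxic cells, differed by -5.49 ± 0.32 and Cst7, a cystatin, by -4.28 ± 0.23. Eomes, Prf1 (perforin) and Gzma (granzyme A) were called with smaller differences of -2.59 ± 0.26, -2.06 ± 0.26 and -1.81 ± 0.26. NK cells share most of these genes, and of 7 NK cell markers 5 were called lower in B cells. The summed signal of those 7 was 655 to 846 on the B cell arrays, 1844 to 3516 on the CD4 T cell arrays and 14284 to 18480 on the CD8 T cell arrays, while Klra8 and Ncr1, which NK cells carry, were below the table's median on all 9 arrays. Whether NK cells in the pools took part in these values was not tested.

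Of the Toll-like receptors and their adaptors, 10 of 19 measured members were called higher, 1 lower and 8 not at all (median 0.99). Unc93b1, which carries the nucleic acid-sensing receptors to endosomes, had 8455, 8071 and 9062 on the B cell arrays, against 244, 281 and 425 on the CD4 T cell arrays and 349.7, 451 and 451 on the CD8 T cell arrays. Unc93b1 differed by 4.40 ± 0.12. Cd180, the partner of Ly86, had 1909, 1652 and 1975 on the B cell arrays, against 279.6, 169.5 and 244 on the CD4 T cell arrays and 228, 378 and 140.2 on the CD8 T cell arrays. Cd180 differed by 2.76 ± 0.19. Irf5, a transcription factor downstream of these receptors, had 3273 ± 192 in B cells, against 202 ± 63.96 in CD4 T cells and 221 ± 67.3 in CD8 T cells (3.71 ± 0.14). Both parts of the Cd180 and Ly86 complex and the chaperone were thus on the B cell side. Tlr4 had 533 ± 39.9 in B cells, against 66.9 ± 51.99 in CD4 T cells and 163 ± 57.3 in CD8 T cells (1.96 ± 0.25) and Irak2, a kinase of the pathway, differed by 1.78 ± 0.11. Tlr9 (outside the naming rule) was not called, with 119.7, 274 and 324 on the B cell arrays, against 245, 116 and 252 on the CD4 T cell arrays and 22.1, 355 and 181 on the CD8 T cell arrays. Tlr9 differed by 0.35 ± 0.37.

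The BCL2 family, which sets the threshold of cell death, was split: 5 of 14 measured members were called higher, 3 lower and 6 not at all (median 0.12, and -0.01 without B cell array 1). Bid, a promoter of death, had 2722 ± 694 in B cells, against 601 ± 27.9 in CD4 T cells and 903 ± 98.1 in CD8 T cells (1.79 ± 0.12). Bmf, another, had 1283 ± 212 in B cells, against 307 ± 40.6 in CD4 T cells and 401 ± 41.7 in CD8 T cells (1.73 ± 0.12). Pmaip1 (Noxa) was higher (1.52 ± 0.27) and Bbc3 (Puma) lower in B cells (-1.41 ± 0.17). Bcl2, the inhibitor of death, had 1730, 1670.2 and 1618 on the B cell arrays, against 2492, 2198 and 2348 on the CD4 T cell arrays and 2673, 3255 and 2423 on the CD8 T cell arrays. Its difference of -0.59 ± 0.12 lost its call after median centring (adjusted p = 0.118). Mcl1, another inhibitor, was higher by 0.52 ± 0.14 and lost its call after median centring, in the fit of the 9 lymphocyte arrays alone and without B cell array 1 or 2 (adjusted p between 0.0544 and 0.0989). On the deposited scaling its other probe sets were all called higher too, with differences of 0.66 to 0.85.

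The Notch pathway, which decides lymphocyte fates, also ran both ways: 3 of 16 measured members were called higher, 4 lower and 9 not at all (43.8% called, against 18.9% of all genes). Its median was -0.03, and 0.09 after median centring. Notch2 was higher in B cells (above) and Notch1 lower, with 479.5, 457 and 506 on the B cell arrays, against 1393, 1706 and 1501 on the CD4 T cell arrays and 1644, 1002 and 1484 on the CD8 T cell arrays. Notch1 differed by -1.49 ± 0.17. Hes1, a target gene of Notch, had 1113, 1242 and 1174 on the B cell arrays, against 171, 42.6 and 195 on the CD4 T cell arrays and 139.9, 123 and 121 on the CD8 T cell arrays. Hes1 differed by 2.82 ± 0.25. Lfng, which glycosylates Notch, had 571 ± 161 in B cells, against 2631 ± 327 in CD4 T cells and 2659 ± 182 in CD8 T cells (-2.15 ± 0.18). Adam17, a Notch-cleaving protease, was higher (0.99 ± 0.12) and Numb, an inhibitor of Notch, lower (-0.80 ± 0.10).

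Of the quiescence genes and targets of Foxo factors, 1 of 18 measured members were called higher, 6 lower and 11 not at all (median -0.31). Calls covered 38.9% of this list, against 18.9% of all genes. Klf4, an inhibitor of proliferation, had 616, 1407 and 1076 on the B cell arrays, against 232, 346 and 300.1 on the CD4 T cell arrays and 215, 141 and 334 on the CD8 T cell arrays (log2 difference 1.77 ± 0.33), the member higher in B cells. Pik3ip1, an inhibitor of PI3 kinase, differed by -1.56 ± 0.15 and Klf3, a zinc finger factor, was lower too. Slfn2 differed by -0.55 ± 0.15, a call lost after median centring (adjusted p = 0.368), without B cell array 3 (0.15) and without the dimmest arrays (0.0656). Of the GIMAP GTPases of lymphocyte survival, 0 of 8 measured members were called higher, 3 lower and 5 not at all, and Gimap3 (-1.12 ± 0.11) kept its call under all settings tried, while Gimap4 and Gimap9 lost theirs under several.

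The ribosome, the respiratory chain and the proteasome gave no calls, unlike the glycolytic genes. None of 25 ribosomal, 25 respiratory chain and 27 proteasome genes was called by limma, and their median differences were -0.19, 0.05 and 0.01. The medians of the respiratory chain and proteasome genes were -0.03 and -0.07 after quantile normalization. Of the glycolytic genes, 4 of 13 measured members were called higher, 5 lower and 4 not at all (median -0.11, and 0.06 after median centring). After median centring only 2 were called higher and 2 lower, so many of these calls depended on the scaling. Hk2, a hexokinase, had 584, 540.1 and 571 on the B cell arrays, against 50.6, 136 and 260.4 on the CD4 T cell arrays and 378, 295 and 261 on the CD8 T cell arrays. Hk2 differed by 1.28 ± 0.21. Ldha, lactate dehydrogenase A, had 5620.1 ± 1939.6 in B cells, against 10633 ± 653 in CD4 T cells and 9515 ± 2354 in CD8 T cells (-0.87 ± 0.16), a call lost after median centring (adjusted p = 0.0881), and Pfkp, a phosphofructokinase, differed by -0.99 ± 0.12. The glucose transporter Slc2a1 was higher in B cells (0.64 ± 0.11).

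Of the cell cycle genes, 4 of 25 measured members were called higher, 2 lower and 19 not at all, so that 24% of the list was called, against 18.9% of all genes. Ccnd2, a D-type cyclin, had 2646, 2313 and 2777 on the B cell arrays, against 8523, 10096 and 8567 on the CD4 T cell arrays and 9411, 8812 and 11309.5 on the CD8 T cell arrays (log2 difference -1.85 ± 0.15), and Ccnd3 differed by -1.02 ± 0.11. The D cyclins were thus lower in B cells, whereas Tk1, thymidine kinase, was higher (1.94 ± 0.33) at 524 ± 208 signal units in B cells. Aurkb, Rrm1 and Mcm5 were called higher, and each lost its call under some setting, Aurkb in the fit of the 9 arrays alone (adjusted p = 0.155) and Rrm1 and Mcm5 without B cell array 3 (0.108 and 0.0858). Without that array the list had 1 member called higher and 4 lower, and its median was -0.15, against 0.14 with all arrays.

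Genes of protein folding in the endoplasmic reticulum lay above the median of all genes: 10 of 19 measured members were called higher, 2 lower and 7 not at all (median 0.47). Pdia4, a disulfide isomerase, had 2669, 3600 and 4240.4 on the B cell arrays, against 729.7, 1195 and 1143 on the CD4 T cell arrays and 1030.2, 829 and 1062 on the CD8 T cell arrays. Pdia4 differed by 1.76 ± 0.21. Hsp90b1 (GRP94), a chaperone needed for Toll-like receptors and integrins, differed by 0.77 ± 0.13, and Pdia6 by 0.75 ± 0.08. Dnajc3 was lower (-0.81 ± 0.10). Herpud1 differed by 1.02 ± 0.15, but the probe set that is brightest over the 9 lymphocyte arrays was not called (0.24, adjusted p = 0.273). Hspa5 (BiP), the main chaperone, was not called, with 13438 ± 1785 in B cells, against 11244 ± 4448 in CD4 T cells and 9076 ± 3505 in CD8 T cells.

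In the interferon response, 2 of 21 measured members were called higher, 5 lower and 14 not at all (median -0.30). The list had 33.3% of its members called, against 18.9% of all genes, and its higher count was close to the share of all genes. Ifih1 (MDA5), a sensor of viral RNA, had 90.3, 248 and 142 on the B cell arrays, against 1332, 1450.4 and 1083 on the CD4 T cell arrays and 672, 611 and 777 on the CD8 T cell arrays. Ifih1 differed by -2.31 ± 0.20. Ifit1 had 269.5 ± 62.8 in B cells, against 1062 ± 357 in CD4 T cells and 1094 ± 349.9 in CD8 T cells (-1.79 ± 0.24) and Ifit2 differed by -1.42 ± 0.24, while Stat2 was higher in B cells (0.84 ± 0.13). Calls of Usp18, Bst2 and Oasl1 depended on the setting, with adjusted p of 0.115 and 0.232 for Usp18 and Bst2 after median centring and 0.0805 for Oasl1 without the dimmest arrays. The immediate early and heat shock genes, which moved with the dimmest arrays, had 2 of 19 members called higher (10.5%), close to the 9.05% of all genes, and none lower. Their median was 0.37, and -0.15 without B cell array 2. Egr3 had 4101, 4385 and 4718 on the B cell arrays, against 1223, 1093 and 1276 on the CD4 T cell arrays and 940.5, 1043 and 1259 on the CD8 T cell arrays (log2 difference 1.91 ± 0.29), the B cell arrays lying above all others, and its call held without the dimmest arrays. Atf3 lost its call there (adjusted p = 0.103). The remaining members were spread widely within each group, as Jun shows (chosen after its values were seen) with 8561, 14030.5 and 2508 on the B cell arrays, against 3873, 17890.2 and 3651 on the CD4 T cell arrays and 1945, 2729 and 13451 on the CD8 T cell arrays. Jun differed by 0.38 ± 0.63.

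**Figure D5:**
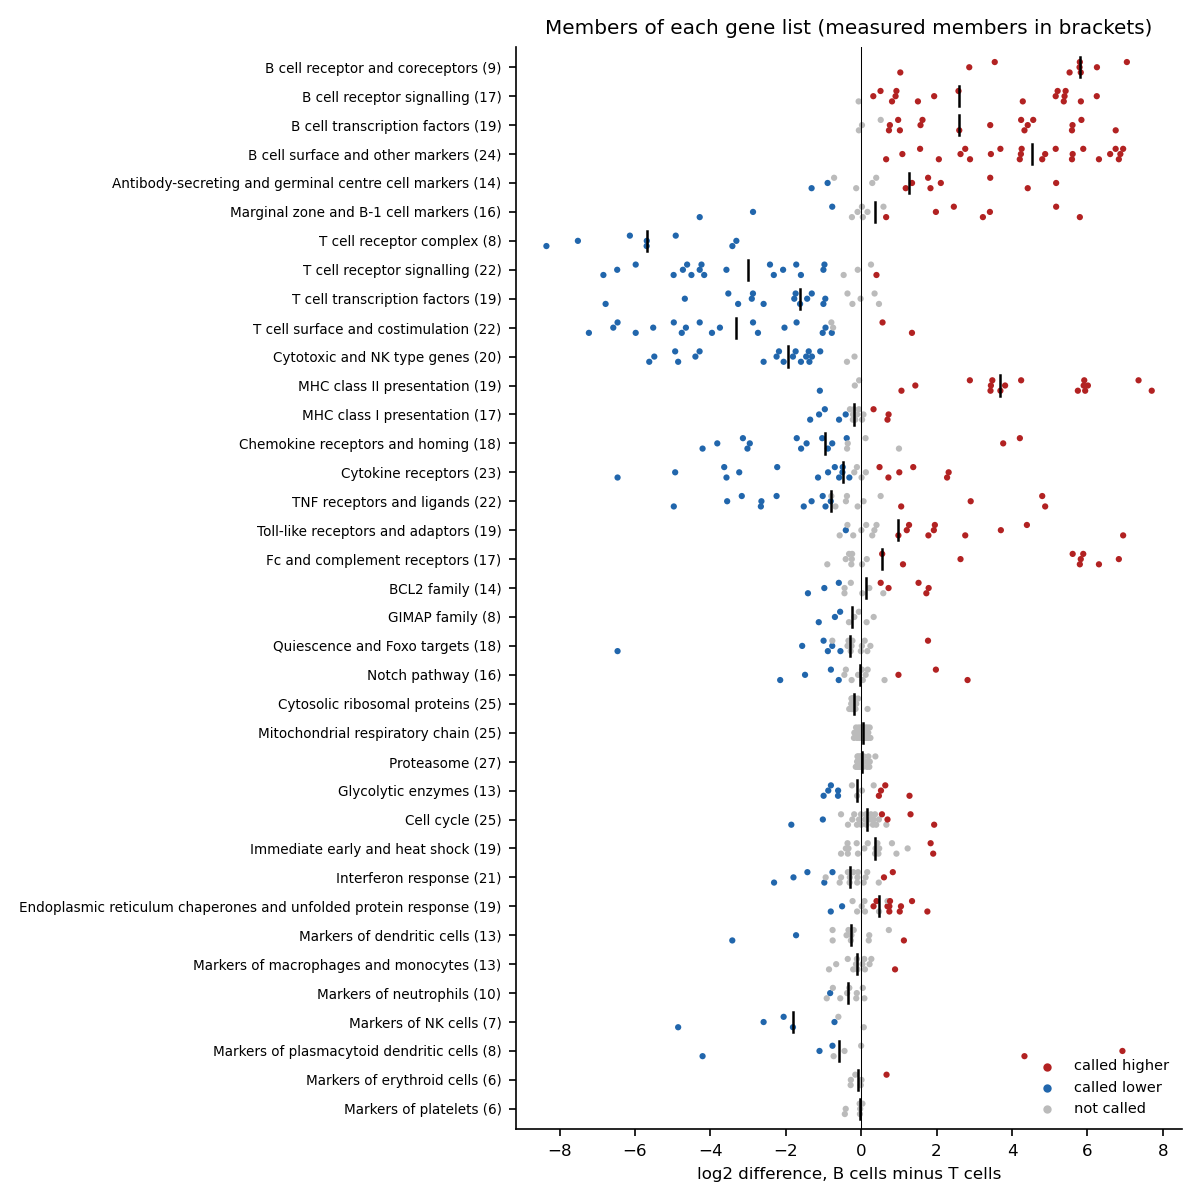
Log2 difference (B cells minus the mean of the T cell groups) of each measured member of 37 gene lists, with 1 point for each gene, red if called higher, blue if called lower and grey if not called, and a black bar at the list's median. The B cell receptor (9 genes) and T cell receptor (8 genes) lists lie on opposite sides, and ribosomal, respiratory chain and proteasome genes lie near 0.

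Markers of several other spleen cells were also measured. The 13 DC markers summed to 2310 to 2496 on the B cell arrays, 3015 to 4924 on the CD4 T cell arrays and 3195 to 4122 on the CD8 T cell arrays, against 57842 to 74604 on the wild-type DC arrays, and Zbtb46, Clec4a2 and Batf3 were below the table's median on all 9 lymphocyte arrays. Within that list Tbc1d4, a regulator of glucose transport, had 13.2 ± 5.97 in B cells, against 1458 ± 383 in CD4 T cells and 247 ± 40.9 in CD8 T cells (-3.42 ± 0.15), and Ly75, the antigen of DEC205, had 287 ± 29.2 in B cells, against 855 ± 275 in CD4 T cells and 1378 ± 345 in CD8 T cells (-1.73 ± 0.19). Naaa was higher in B cells (1.13 ± 0.17). The 13 macrophage markers summed to 1976 to 2846 on the B cell arrays, 1565 to 2198 on the CD4 T cell arrays and 1794 to 3024 on the CD8 T cell arrays, with Adgre1 (F4/80) called higher in B cells (0.90 ± 0.22), a call lost without the dimmest arrays (adjusted p = 0.0596). Of the neutrophil markers 1 of 10 was called, Mmp9 (-0.82 ± 0.26), of the erythroid markers 1 of 6, Car2 (0.67 ± 0.19), and of the platelet markers 0 of 6, against 18.9% of all genes. The Mmp9 and Car2 calls were lost in the fit of the 9 lymphocyte arrays alone (adjusted p = 0.106 and 0.0521). Of 8 plasmacytoid DC markers, 2 were called higher in B cells (Tcf4 and Ly6d, which are also B cell genes), 3 lower (Ccr9, Pacsin1 and Bst2) and 3 not at all (median -0.59). Their summed signal was 25574 to 27386 on the B cell arrays, 3772 to 4421 on the CD4 T cell arrays and 8171 to 11710.1 on the CD8 T cell arrays, against 3064 to 4829 on the wild-type DC arrays. Ly6d made up most of the B cell sum and Ccr9 most of the CD8 T cell sum, while Siglech, the defining marker, was below the table's median on all 9 arrays.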

How the data were processed

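RNA from sorted cells was measured on 21 Affymetrix arrays, from biotinylated cRNA made from 5 ug of total RNA, per the labels' protocols. The authors deposited MAS5 signal intensity values from GCOS, per the submitters' processing notes, and the values show that every array had been scaled to a 2% trimmed mean of 500. No source used here gives their versions. Of 45101 probe sets, 34945 had 1 gene symbol in GEO's platform annotation, 932 had several, 9160 had none and 64 were controls, and genes without such a probe set were not analysed here.

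Differences were tested with limma 3.58.1 in R 4.3.3 on log2(signal + 48.6), where 48.6 is the table's lower quartile (25% of its values lie below), with 7 group means over 21 arrays, an intensity trend, no filter on low values and Benjamini-Hochberg adjustment over all 34945 probe sets. Calls were made at an adjusted p under 0.05. The T cell value is the mean of the CD4 and CD8 groups. Each gene was represented by its brightest probe set on average. The test was tried on simulated data first. Having only 3 arrays in each group limits the precision.

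Named genes were the 15 highest and 15 lowest called genes whose groups did not overlap, up to 6 called members of each list with the smallest adjusted p, all members of the B cell receptor, T cell receptor and class II lists, and the cell type markers. The members and lists were chosen with earlier results of these data known. Replicate numbers were not used as pairs in the main fit. The correlation of same-numbered deviations ran from -0.29 to 0.226, above 0.1 in 3 of 9 pairs. Between arrays with other numbers it ran from -0.392 to 0.379, above 0.1 in 3 of 18. Same-numbered B cell and CD4 T cell arrays had 0.067, 0.226 and 0.176. Their other-numbered pairs had -0.168 to 0.0065. These values do not settle whether the numbers pair the samples. Alternatives changed the offset, scaling, filter, arrays, trend, probe set and replicate block. Leaving out the dimmest arrays was added after seeing the data.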

Additional observations from a re-analysis of the deposited data

How the results depend on the processing

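The fit of only the 9 lymphocyte arrays called 1345 genes higher and 1438 lower in B cells, and 2240 and 2473 probe sets. Median centring moved the lower calls most. It left 985 genes and 1744 probe sets called lower in B cells than in T cells, against 1784 and 3113 on the deposited scaling, 793 genes and 1373 probe sets lower than in CD4 T cells, and 845 genes and 1446 probe sets lower than in CD8 T cells. It put the median log2 difference of all probe sets at 0.05, against -0.07. Without 1 array at a time, genes called against T cells ranged from 1413 to 1734 higher and 1458 to 1987 lower, and probe sets from 2325 to 2925 and 2520 to 3496. Against CD4 T cells the ranges were 1249 to 1471 and 1253 to 1572 genes, and 2034 to 2435 and 2173 to 2733 probe sets. Against CD8 T cells they were 1293 to 1536 and 1317 to 1756 genes, and 2188 to 2567 and 2192 to 3056 probe sets. The brightness difference ranged from -30.8 to -16.0 signal units, and it was -0.07 as a mean of log2 values. With the replicate block 1707 genes were called higher and 1834 lower in B cells, and among named genes it ended the call of Gimap9 alone (adjusted p = 0.0539). Named genes lost their call 13 times under median centring, 7 times without the dimmest arrays and 5 times in the fit of the 9 lymphocyte arrays. Over all the fits that each left out 1 array, named genes lost their call 30 times. None reversed. The cause of these changes was not tested.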
